A study of Mus musculus with 9 samples.

Results

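Expression of 37 genes of the Notch pathway was compared between control and Ctnnb1 knockout medial ganglionic eminence (MGE), a part of the embryonic ventral telencephalon whose progenitors produce many cortical interneurons. The genes were chosen by symbol for their place in the pathway, not by their values. All 37 were found among the 48526 genes of the deposited table, as 6 ligands, 4 receptors, 10 modifiers of ligands or receptors, 5 proteases, 5 nuclear effectors and 7 genes grouped as targets. Hes6 is counted among the targets as a Hes family gene, and whether it responds to Notch here was not tested. Each of them had a mean of at least 10 normalized counts over the 9 libraries and was tested.

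Bulk RNA was sequenced from samples labelled MGE tissue of C57BL/6 mice at embryonic day 14.5, and the protocol leaves unclear whether cells or the whole dissected region went into them. Every animal carried Nkx2.1-cre, a Cre recombinase driven by regulatory sequence of the ventral patterning gene Nkx2-1, and the fluorescent reporter Rosa26-YFP. The 4 control libraries comprised 3 with no floxed Ctnnb1 allele and control 4, which was Ctnnb1fl/wt. The 5 knockout libraries were Ctnnb1fl/fl. Cells of the dissected tissue without a history of Nkx2-1 expression, such as those of blood vessels, are not targeted by this Cre. Separate embryos or pools are not named for the libraries. The p-values therefore rest on library-to-library spread, some of which may be technical.

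Notch signaling acts between neighbouring cells. A Delta or Jagged ligand on one cell binds a Notch receptor on the next, an ADAM protease and then the gamma-secretase complex cut the receptor, and the released intracellular domain enters the nucleus, where it joins the DNA-binding protein RBPJ and a Mastermind coactivator to switch on Hes and Hey repressors. In the embryonic forebrain these repressors hold back proneural factors and keep radial glia, the neural progenitors, from differentiating, while cells that begin to differentiate display Delta ligands.

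Library depth was alike, from 5120585 to 5569444 counted reads. The targeted gene Ctnnb1, which encodes beta-catenin, stood at 9545 to 9967 normalized counts in the controls and at 5477 to 7660.5 in the knockouts. Nkx2-1 (4389 to 6698 in control, 3466 to 5304 in knockout) and Lhx6 (1968 to 4183 and 4611 to 6066), which mark the MGE and its neurons, were present in every library. Control 1 stood apart by transcripts of other regions: the summed count of 9 cortical neuron markers was 2581 in it, in controls 2 to 4 only 96.7 to 208, and 158 to 544 across the knockouts. That of 7 choroid plexus markers was 2962 in control 1, 169 to 366 in controls 2 to 4 and 163 to 739 across the knockouts. Knockout 4 also held more of some genes of other regions than the other knockouts, chosen here after their values were seen: 493 of Pax6 (the others 22.7 to 102), 410.5 of Otx2 (83.1 to 106) and 83.2 of Clic6 (2.97 to 25.2). Members of the pathway whose call depends on control 1, control 4 or knockout 4 are named. Genes were called at a Benjamini-Hochberg adjusted p under 0.05 by limma: 17.2% of the 13780 tested genes were higher in knockout, 17.3% were lower, and 29.1% had groups that did not overlap.

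Of the receptors 3 of 4, and of the genes grouped as targets 5 of 7, Hes6 included, were lower in knockout. The ligands and modifiers moved in both directions, and of the proteases and the RBPJ complex only Adam17 and Spen passed the threshold. Of the 37 genes, 13 fell (35.1%), 6 rose (16.2%) and 18 did not pass the threshold, and for 15 (40.5%) the groups did not overlap. The median log2 fold change of the 37 genes was -0.21, against -0.01 for all genes tested. The genes that fell were the ligand Dll1, the receptors Notch1, Notch2 and Notch3, the modifiers Lfng, Mfng and Dtx4, the protease Adam17, and the targets Hes1, Hes5, Hes6, Hey1 and Nrarp. Those that rose were the ligands Jag2 and Dner, the modifiers Rfng, Dtx1 and Dtx3, and the corepressor Spen. In bulk tissue, fewer cells of a type and less RNA per cell cannot be told apart. Against controls 2 and 3 alone, which had neither the high cortical and choroid sums nor a floxed allele, 9 of the 37 fell and 3 rose (Jag2, Dner and Dtx1), where 8.04% of all genes tested were lower and 9.94% higher.

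**Figure D1:**
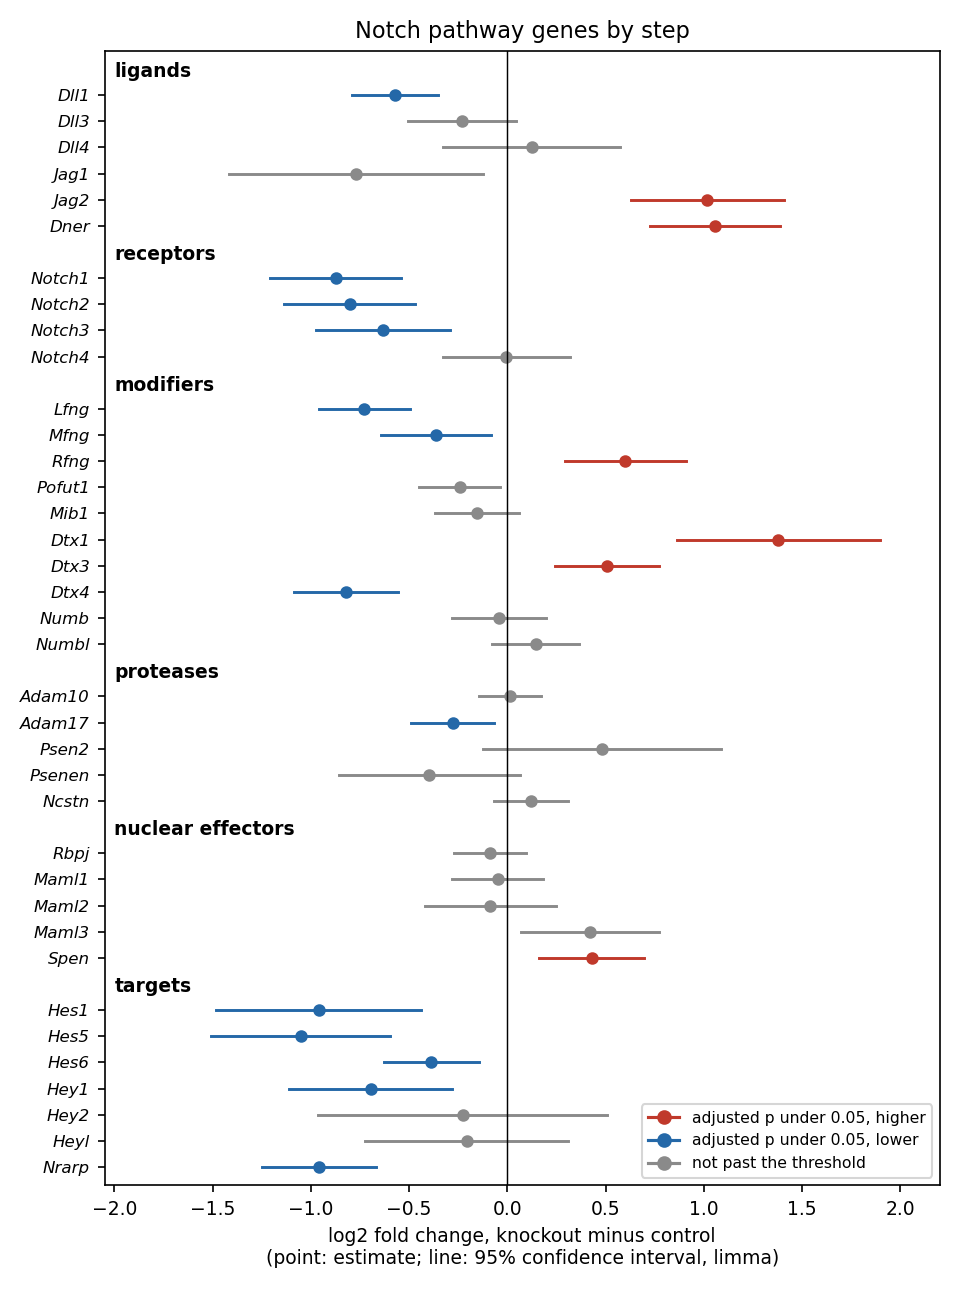
Log2 fold change (knockout minus control) of the 37 Notch pathway genes grouped by step, with the limma estimate as a point and its 95% confidence interval as a line; red marks genes that rose, blue genes that fell and grey genes not past the threshold. The receptors Notch1 to Notch3 and 5 targets lie to the left, and Dtx1, at 1.38, lies farthest to the right.

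Among the ligands, Dll1 fell and Jag2 and Dner rose. Dll1 (chromosome 17, 15367354 to 15376872, minus strand, mm10) encodes the Delta ligand that differentiating progenitors present to their neighbours. It was at 600.4, 749, 646 and 718 normalized counts in controls 1 to 4 and at 469.8, 515, 489.5, 413 and 397 in knockouts 1 to 5. Every knockout lay below every control, and the mean went from 678 ± 67.6 (SD, n = 4) to 457 ± 50.4 (SD, n = 5) (log2 fold change -0.57, SE 0.103, adjusted p = 0.000911). Dll3, a divergent Delta protein that acts inside the cell rather than as an activating ligand, ranged over 626 to 829 in control and 552 to 808 in knockout (log2 fold change -0.23, SE 0.129, adjusted p = 0.177). The groups overlapped for Dll3, and the 95% interval of its log2 fold change was -0.51 to 0.04.

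Jag2 (chromosome 12, 112907819 to 112929776, minus strand) encodes a Jagged ligand and stood at 53.6, 51.6, 36.2 and 63.8 in the controls and at 88.0, 91.3, 95.3, 112 and 134 in the knockouts. It rose from 51.3 ± 11.4 to 104 ± 19.1 (log2 fold change 1.02, SE 0.182, adjusted p = 0.000857), with no overlap. Its paralog Jag1 went the other way on the mean, from 274 ± 77.0 to 163 ± 54.0, but did not pass (log2 fold change -0.77, SE 0.290, adjusted p = 0.0644). Control 1 held 167 of Jag1, below knockouts 1 and 2, and the other controls held 290.0 to 349.7. Without control 1 the log2 fold change of Jag1 was -0.99 (adjusted p = 0.0177), and without knockout 2, the highest knockout, it was -0.91 (adjusted p = 0.0338). Jag1 also passed with library quality weights and with no filter on low genes.

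Dner (chromosome 1, 84369839 to 84696221, minus strand) encodes a neuronal transmembrane protein with EGF repeats, reported as a noncanonical Notch ligand. Its counts were 259.8, 400.3, 418 and 277 in the controls and 634, 574, 768, 684 and 814 in the knockouts (log2 fold change 1.06, SE 0.153, adjusted p = 0.000343). The lowest knockout lay above the highest control. Dll4, which is best known from the tips of growing vessels, held few counts, 27.3 to 53.8 in control and 34.6 to 49.2 in knockout (log2 fold change 0.12, SE 0.212, adjusted p = 0.684). Its groups overlapped, and the interval of its change, -0.33 to 0.58, includes both directions.

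Of the 4 receptors, Notch1, Notch2 and Notch3 fell. Notch1 (chromosome 2, 26457903 to 26516663, minus strand), the main receptor of neural progenitors, stood at 2615, 3425, 3408 and 2997 in the controls and at 1913, 2328, 1333, 1673 and 1379 in the knockouts. All knockouts lay below all controls, at 55.5% of the control mean (log2 fold change -0.87, SE 0.154, adjusted p = 0.00113). Notch2 (chromosome 3, 98013527 to 98150361, plus strand) went from 643 ± 35.8 to 377 ± 95.7. Its controls held 598 to 683 and its knockouts 263 to 518, so that the groups were apart, and knockout 4 was the highest knockout (log2 fold change -0.80, SE 0.155, adjusted p = 0.00178).

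Notch3 (chromosome 17, 32120820 to 32166852, minus strand), which radial glia and the mural cells of vessels express, was at 536, 657, 764 and 774 in the controls and at 399.6, 532, 364, 566 and 355 in the knockouts (log2 fold change -0.63, SE 0.158, adjusted p = 0.00828). The groups met at the edge, since knockout 4 lay above control 1. Notch4, a receptor mostly of endothelial cells, was at 78.8 to 103 in control and 71.5 to 107 in knockout (log2 fold change -0.0054, 95% interval -0.33 to 0.32, adjusted p = 0.982).

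Per kilobase of exon, Notch1 was the most abundant receptor transcript in both groups. In control it reached 219 ± 27.1 normalized counts per kb, ahead of Notch3 at 84.4 ± 13.8, Notch2 at 59.7 ± 3.32 and Notch4 at 11.5 ± 1.49. In knockout the order was the same, at 121 ± 28.9, 54.8 ± 12.21, 35.0 ± 8.88 and 11.5 ± 1.82. The summed receptor level per kb was 320.5 to 408 in the controls and 176 to 279 in the knockouts, with no overlap. Notch4, which did not pass the threshold itself, took 3.09 ± 0.32% (SD) of that sum in control and 5.31 ± 1.25% in knockout. Among the Delta and Jagged ligands Dll3 led in both groups (268 ± 33.5 and 229 ± 41.8 per kb), followed by Dll1 (161 ± 16.0 and 108 ± 11.9). Jag2 was low in both groups (7.36 ± 1.64 and 14.9 ± 2.74), with 1.52 ± 0.41% of the ligand sum in control and 3.94 ± 1.21% in knockout. These lengths take all annotated exons of a gene, whichever isoform is used.

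**Figure D2:**
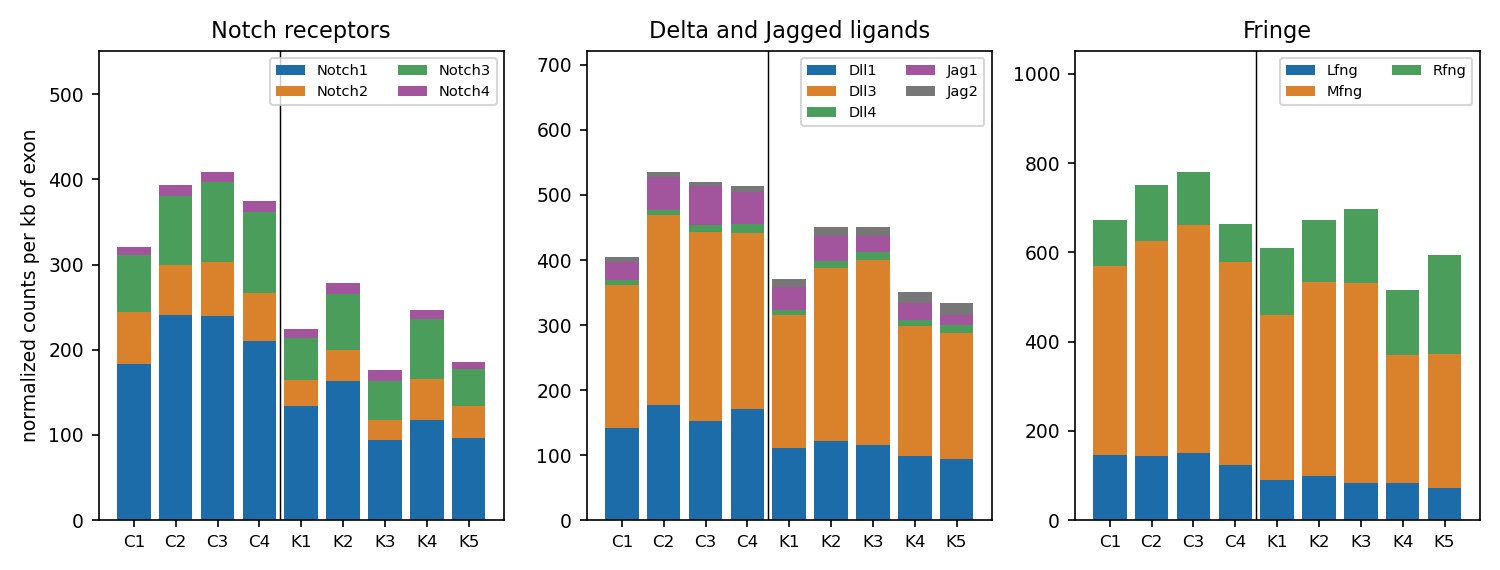
Normalized counts per kilobase of exon of the receptors, the Delta and Jagged ligands and the Fringe genes, stacked in each library (C control, K knockout). The receptor bars reach 320.5 to 408 in the controls and 176 to 279 in the knockouts, and Rfng makes up 12.8 to 16.5% and 20.6 to 37.2% of the Fringe bars.

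The Fringe glycosyltransferases, which add a sugar to the fucose on Notch and so set which ligands it answers, did not move together. Lfng (chromosome 5, 140607320 to 140615545, plus strand) stood at 366, 358, 378 and 312 in the controls and at 224, 247, 209.6, 209 and 178 in the knockouts, with no overlap (log2 fold change -0.73, SE 0.109, adjusted p = 0.000296). Rfng (chromosome 11, 120780746 to 120784207, minus strand) stood at 259, 309, 292 and 211 and 376, 345, 409, 362 and 550.1, also with no overlap and in the opposite direction (log2 fold change 0.60, SE 0.143, adjusted p = 0.00553). With controls 2 and 3 only, the change of Rfng was 0.42 (adjusted p = 0.0874). Per kb, Lfng was above Rfng in every control and Rfng was above Lfng in every knockout: the means were 141 ± 11.5 and 108 ± 17.3 in control and 85.2 ± 9.99 and 164 ± 33.2 in knockout. Mfng, the most abundant of the 3 per kb, ranged over 1202 to 1450.0 in control and 815 to 1274 in knockout (log2 fold change -0.36, SE 0.131, adjusted p = 0.0442). Its call was lost without any 1 of controls 2, 3 and 4 or of knockouts 1, 4 and 5, and with controls 2 and 3 only (-0.45, adjusted p = 0.0936).

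Among the Deltex genes, which encode E3 ubiquitin ligases, Dtx1 and Dtx3 rose and Dtx4 fell. Dtx1 (chromosome 5, 120680202 to 120711927, minus strand) had the largest change of the 37 genes in either direction: 171, 154, 124 and 112 in the controls and 262, 268, 382, 369 and 613 in the knockouts (log2 fold change 1.38, SE 0.235, adjusted p = 0.00138). Knockout 5 was the highest, and the lowest knockout lay above the highest control. Dtx4 (chromosome 19, 12466338 to 12501454, minus strand) stood at 417, 389, 408 and 489 and 221, 212, 215, 318 and 248 (log2 fold change -0.82, SE 0.125, adjusted p = 0.000325). Here too the groups were apart, with knockout 4 nearest to the controls. Dtx3 (chromosome 10, 127190378 to 127195728, minus strand) went from 823 ± 172 to 1154 ± 102 (log2 fold change 0.51, SE 0.125, adjusted p = 0.00641). All knockouts lay above all controls, among which controls 2 and 3 were the highest, and with these as the only controls the change was 0.25 (adjusted p = 0.110).

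The other 4 modifiers did not pass the threshold. Pofut1, which puts the O-fucose on Notch that Fringe extends, ranged over 306 to 400.3 in control and 275 to 312 in knockout (log2 fold change -0.24, SE 0.0973, adjusted p = 0.0648). It passed without control 1 (-0.31, adjusted p = 0.0296) and with controls 2 and 3 only (-0.36, adjusted p = 0.0351). Mib1, the ubiquitin ligase that drives ligand endocytosis in the signal-sending cell, was at 847 ± 90.7 and 760.1 ± 72.0 (log2 fold change -0.15, SE 0.0995, adjusted p = 0.245). The Notch inhibitors Numb (162 ± 18.8 and 157 ± 9.12, 95% interval -0.28 to 0.20, adjusted p = 0.793) and Numbl (411 ± 41.3 and 455 ± 52.9, 95% interval -0.08 to 0.36, adjusted p = 0.299) had overlapping groups.

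**Figure D3:**
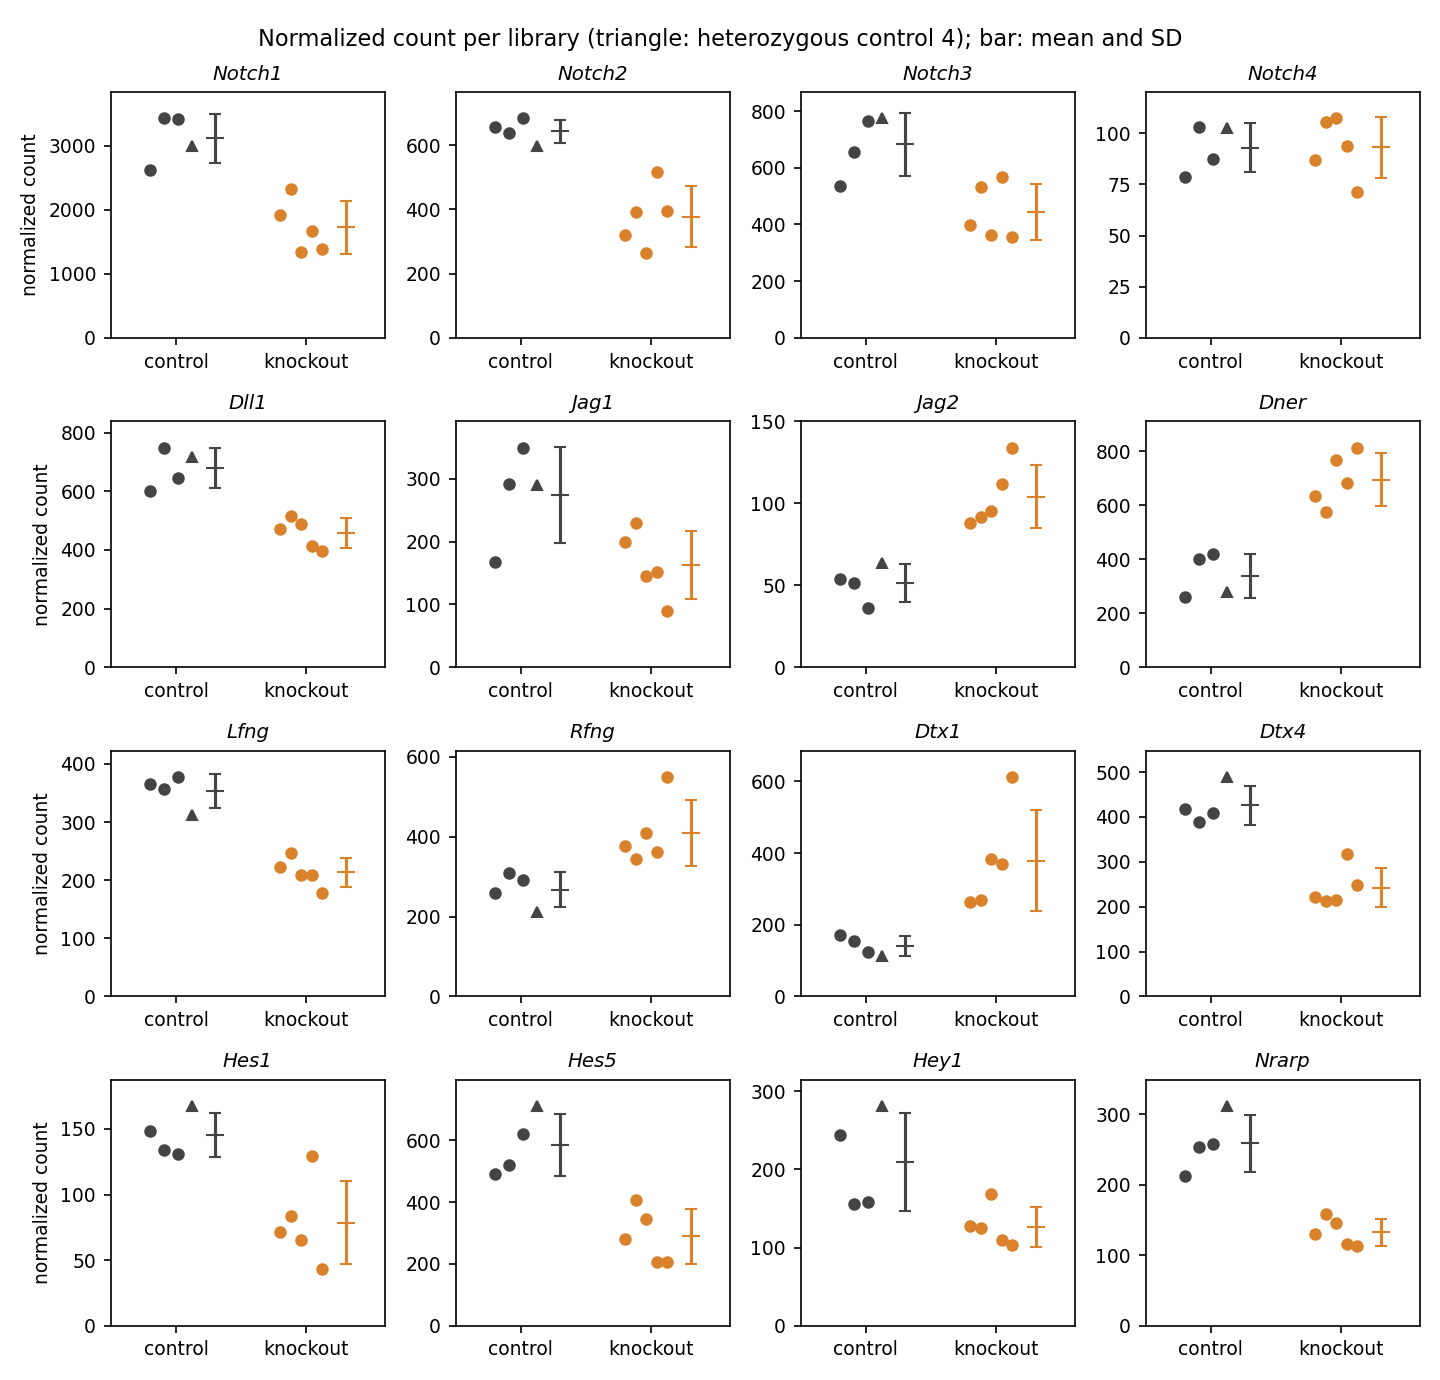
Normalized count of 16 Notch pathway genes in each library, with controls in grey, knockouts in orange, a triangle for the heterozygous control 4, and a bar for each group's mean and SD; all axes start at 0. Notch1 and Hes5 separate the groups downward, Jag2 (36.2 to 63.8 against 88.0 to 134) and Dtx1 upward, and Notch4 does not separate them.

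Of the 5 protease genes, Adam17 fell and the others did not pass the threshold. Adam10, the metalloprotease of the first cut, was at 852, 885, 874 and 903 in the controls and at 902, 905, 897, 858 and 878 in the knockouts. The groups overlapped and the log2 fold change was 0.02 (95% interval -0.14 to 0.17, adjusted p = 0.891). Adam17, a related sheddase, ranged over 268 to 344 and 226 to 257, without overlap (log2 fold change -0.28, SE 0.0986, adjusted p = 0.0405). Its call was lost in each fit that left out 1 library, except the fit without control 2, and with controls 2 and 3 only the change was -0.17 (adjusted p = 0.312).

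Of the gamma-secretase subunits among the 37 genes, Ncstn, Psenen and Psen2 did not pass the threshold. Ncstn, the subunit that receives substrates, was at 575 ± 53.1 and 624 ± 37.9 (95% interval -0.07 to 0.31, adjusted p = 0.318). The small subunit gene Psenen was at 39.8 ± 8.07 and 29.9 ± 5.90 (95% interval -0.86 to 0.06, adjusted p = 0.167). The catalytic subunit gene Psen2 held few counts, 17.1 to 21.9 in control and 16.3 to 48.4 in knockout (95% interval -0.12 to 1.09, adjusted p = 0.203). Knockouts 1 and 5 had the highest Psen2 values, at 34.6 and 48.4. The intervals of Psen2 and Psenen are wide and include both directions.

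In the nucleus, Spen rose and the other 4 effectors did not pass the threshold. Rbpj, through which all canonical Notch signals pass, was at 387, 396, 391.9 and 357 in the controls and at 387, 338, 373, 345 and 358 in the knockouts, with overlap (log2 fold change -0.09, 95% interval -0.27 to 0.09, adjusted p = 0.448). The Mastermind coactivators Maml1 (395 ± 56.3 and 379.7 ± 32.0, adjusted p = 0.753) and Maml2 (105 ± 15.7 and 99.4 ± 18.5, adjusted p = 0.696) overlapped between groups. Maml3 was at 88.9 to 133 and 109 to 175 (log2 fold change 0.42, SE 0.164, adjusted p = 0.0601), and passed without control 2 (0.53, adjusted p = 0.0255) or knockout 1 (0.51, adjusted p = 0.0295). Spen (chromosome 4, 141467890 to 141538597, minus strand), which binds RBPJ in the absence of the Notch intracellular domain and brings corepressors, was at 926, 1497, 1303 and 1204 in the controls and at 1557, 1715, 1402, 1725 and 1804 in the knockouts (log2 fold change 0.43, SE 0.124, adjusted p = 0.0157). Knockout 3 lay below control 2, control 1 was the lowest library, and with controls 2 and 3 only the change was 0.23 (adjusted p = 0.175).

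Of the 7 genes grouped as targets, 5 fell. Hes5 (chromosome 4, 154960923 to 154962371, plus strand), a repressor of proneural genes and the target most used as a readout of Notch activity in neural progenitors, was at 490.2, 518, 619 and 710.5 in the controls and at 279.9, 407, 345, 205 and 208 in the knockouts. The knockout mean was 49.4% of the control mean, with no overlap (log2 fold change -1.05, SE 0.206, adjusted p = 0.00295). Nrarp (chromosome 2, 25180758 to 25183339, plus strand), which encodes an ankyrin repeat protein that binds the Notch transcription complex and limits it, was at 212, 253, 258 and 312 and 129.6, 159, 145, 116 and 114 (log2 fold change -0.96, SE 0.135, adjusted p = 0.000218). It had the smallest adjusted p of the 37 genes. No reads were counted on the gene annotated across its opposite strand, and that opposite to Hes5 held 0.957 to 22.1 normalized counts. Because the strand setting is not given, these values cannot show whether antisense reads entered the counts of Nrarp or Hes5.

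Hes1 (chromosome 16, 30064384 to 30067796, plus strand), which oscillates in progenitors, was at 149, 134, 131 and 167 in the controls and at 71.2, 83.7, 65.2, 129 and 43.3 in the knockouts (log2 fold change -0.96, SE 0.241, adjusted p = 0.00870). Knockout 4 lay just below the lowest control, while the other knockouts were at 43.3 to 83.7. Hey1 (chromosome 3, 8663359 to 8667256, minus strand) was at 245, 156, 158 and 281 and 128, 125, 169, 110.0 and 103 (log2 fold change -0.69, SE 0.193, adjusted p = 0.0136), with overlap, since controls 2 and 3 lay below knockout 3. With controls 2 and 3 only, neither passed: the change was -0.83 for Hes1 (adjusted p = 0.107) and -0.33 for Hey1 (adjusted p = 0.232). The call of Hey1 was also lost with the replicate number as a block (adjusted p = 0.0617).

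Hes6, which unlike its relatives promotes neuronal differentiation and is carried by committed precursors, fell less, from 963 ± 108 to 738 ± 100.3 (log2 fold change -0.39, SE 0.113, adjusted p = 0.0160). It was not called without control 3 (adjusted p = 0.0526) or control 4 (adjusted p = 0.0577), nor with controls 2 and 3 only (-0.36, adjusted p = 0.0919). Of the Hes and Hey genes Hes6 was the most abundant per kb in both groups. Its share of the Hes and Hey sum per kb was 47.8 ± 2.15% (SD) in the controls and 57.5 ± 3.55% in the knockouts, while the share of Hes5 was 38.3 ± 2.18% and 29.2 ± 4.32%. Hey2 (14.0 to 40.4 and 17.1 to 44.0, 95% interval -0.96 to 0.51, adjusted p = 0.637) and Heyl (36.4 to 98.7 and 44.2 to 60.2, 95% interval -0.72 to 0.31, adjusted p = 0.532), both also known from vessels, held few counts and overlapped.

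RBPJ recognises the sequence GTGGGAA, and promoters of genes of the pathway were searched for it on both strands. The windows ran from 250 bases before to 50 after each RefSeq gene start (GRCm38.p6, the assembly behind mm10). Windows of 30 of the 37 genes were searched, and the promoters of Mfng, Mib1, Dtx3, Dtx4, Hes1, Hey1 and Heyl were not searched. At least 1 match lay in 6.38% of the 32851 windows of all genes. Among the 37 genes, matches were found for Hes5, Lfng, Hey2, Spen and Psen2, in 5 of 38 windows. Of these genes, 2 fell (Hes5 and Lfng), 1 rose (Spen) and 2 did not pass (Hey2 and Psen2). A match is a string of letters and not a measured binding site.

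The promoters of 5 genes are printed to show this: those of Hes5 and Lfng, which fell, of Spen, which rose, and of Hey2, which did not pass, all with a match, and that of Nrarp, which fell and has none in this window. Each is the RefSeq sequence upstream of the annotated start, 5′ to 3′ on the strand of the gene, with GTGGGAA or its reverse complement in capitals. Hes5 (chr4:154960673-154960922, plus strand) has 2 matches, 1 on each strand, beginning 226 and 83 bases before the start. Lfng (chr5:140607091-140607319, plus strand), Hey2 (chr10:30842802-30843033, minus strand) and Spen (chr4:141538598-141538847, minus strand) have 1 each in the bases printed, and the Nrarp stretch lies at chr2:25180508-25180757, plus strand.
Hes5: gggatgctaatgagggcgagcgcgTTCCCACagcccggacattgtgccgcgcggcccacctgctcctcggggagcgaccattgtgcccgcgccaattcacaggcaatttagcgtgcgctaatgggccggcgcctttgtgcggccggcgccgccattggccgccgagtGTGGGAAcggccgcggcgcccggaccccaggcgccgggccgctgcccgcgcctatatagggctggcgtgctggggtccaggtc
Lfng: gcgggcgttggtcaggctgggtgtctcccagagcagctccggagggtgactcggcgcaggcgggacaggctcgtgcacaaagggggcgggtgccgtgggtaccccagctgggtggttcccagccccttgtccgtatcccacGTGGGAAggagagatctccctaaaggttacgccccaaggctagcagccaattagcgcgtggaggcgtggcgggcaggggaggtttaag
Spen: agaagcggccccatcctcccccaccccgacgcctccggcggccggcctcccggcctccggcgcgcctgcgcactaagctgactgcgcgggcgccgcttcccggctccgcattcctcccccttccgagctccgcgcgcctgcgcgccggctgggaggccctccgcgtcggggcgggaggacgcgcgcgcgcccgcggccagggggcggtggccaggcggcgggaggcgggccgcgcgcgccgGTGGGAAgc
Hey2: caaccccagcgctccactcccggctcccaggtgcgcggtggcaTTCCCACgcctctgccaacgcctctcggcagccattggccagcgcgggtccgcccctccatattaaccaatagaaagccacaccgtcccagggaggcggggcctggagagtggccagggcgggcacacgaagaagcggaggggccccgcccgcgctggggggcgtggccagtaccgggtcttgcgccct
Nrarp: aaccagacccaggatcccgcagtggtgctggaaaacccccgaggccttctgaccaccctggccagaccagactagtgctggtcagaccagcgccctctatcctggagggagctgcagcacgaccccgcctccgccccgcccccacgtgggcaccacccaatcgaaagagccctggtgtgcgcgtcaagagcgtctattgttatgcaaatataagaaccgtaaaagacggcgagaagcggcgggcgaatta

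Across libraries, the knockouts did not depart from the controls to the same degree. Knockout 5, which had the lowest Ctnnb1 count, was the knockout farthest from the controls for 12 of the 19 called genes, among them Dll1, Jag2, Dner, Dtx1, Hes1 and Nrarp. Knockout 2, which had the highest Ctnnb1 count of the knockouts, was the nearest to the controls for 7 of them. Knockout 4 had a lower Ctnnb1 count (6572) than knockouts 1 to 3, yet was the nearest for 5 and the farthest for 3. Knockouts 5 and 2 also had the lowest and highest summed counts of cycling cell markers among the knockouts (9730.5 and 19505). A relation to either count was not tested. Knockout 4 was the nearest for Notch2, Notch3, Dtx4 and Hes1, among others, and without it their log2 fold changes were -0.93, -0.73, -0.92 and -1.16. Without knockout 4 the calls of Mfng and Adam17 were lost. Without control 1 the call of Adam17 was lost, and Jag1 and Pofut1 passed as lower. The heterozygous control 4 was the highest control for 5 of the 7 targets (Hes1, Hes5, Hey1, Heyl and Nrarp). Without it, Hes1, Hes5, Hey1 and Nrarp had log2 fold changes of -0.89, -0.95, -0.54 and -0.86 and still passed.

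**Figure D4:**
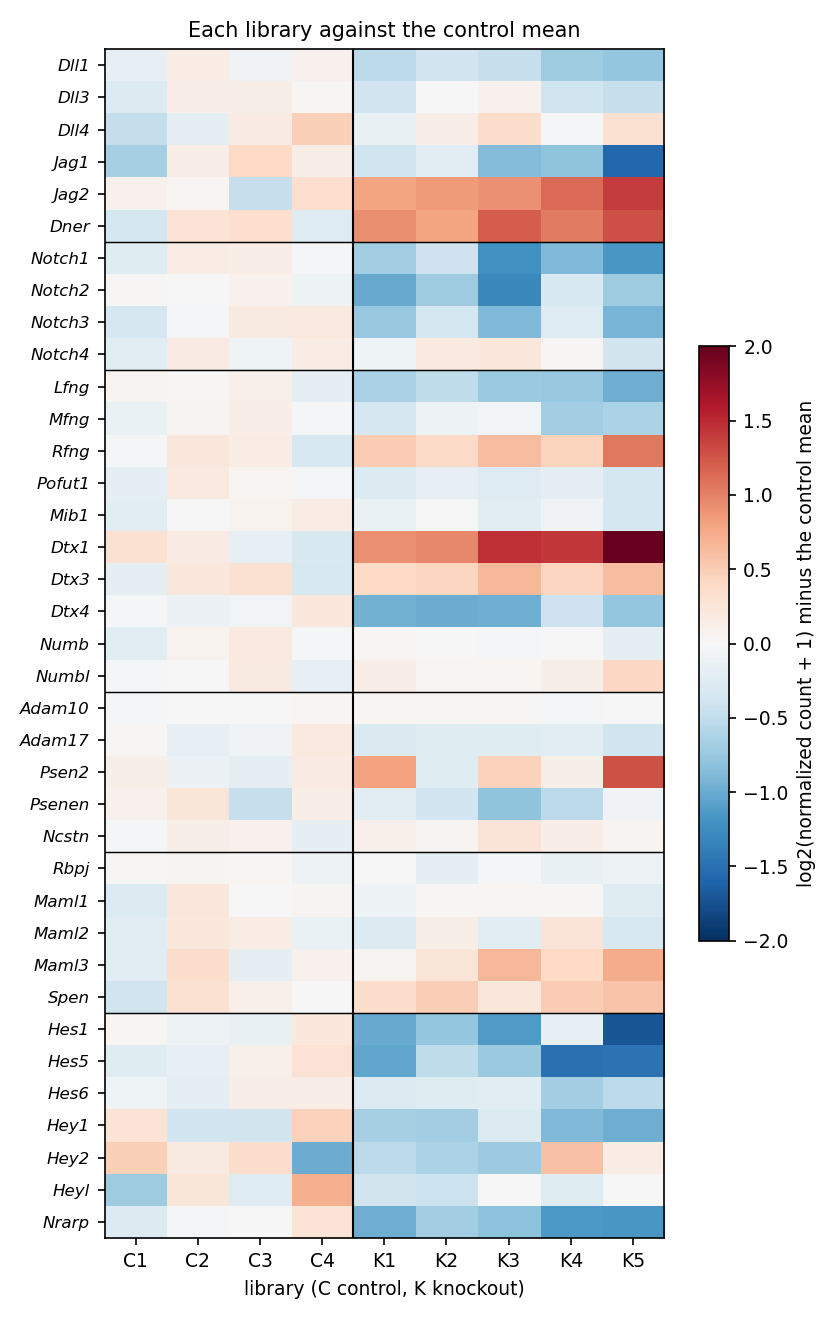
Difference of log2(normalized count + 1) from the mean of the 4 controls, for the 37 genes (rows, in the order ligands, receptors, modifiers, proteases, nuclear effectors, targets) in each library (columns, C control and K knockout); blue is lower and red higher, and the color scale ends at 2 in either direction. The rows of Notch1, Notch2, Lfng, Dtx4, Hes5 and Nrarp are blue in all 5 knockouts, those of Jag2, Dner and Dtx1 red.

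Other genes of the pathway, 51 ligand-like proteins, modifiers, secretase partners and nuclear cofactors, moved both ways. Of the 43 with enough counts to be tested, 11 rose (25.6%), 10 fell (23.3%) and 22 did not pass, with a median log2 fold change of 0.03. Of all genes tested, 17.2% were higher in knockout and 17.3% lower. The number that rose was 7 without knockout 2 and 7 without knockout 4, fits for which the share of all genes is not given here. With controls 2 and 3 only, 5 rose and 3 fell, where 9.94% of all genes tested were higher and 8.04% lower. Among ligand-like genes, the inhibitor-like Dlk1 fell (279.5 ± 63.5 to 172 ± 37.8, log2 fold change -0.71, SE 0.185, adjusted p = 0.0106) and its low relative Dlk2 rose (0.99 to 8.09 in control, 7.02 to 25.2 in knockout, adjusted p = 0.00818). The ligand endocytosis gene Mib2 rose (0.59, adjusted p = 0.00205), as did the Numb-associated kinase Aak1 (0.47), the receptor convertase Furin (0.50) and Neurl4 (0.28). Nepro, reported to act downstream of Notch in neural progenitors, the ubiquitin ligase Nedd4 and the glucosyltransferase Poglut2 fell by 0.66, 0.25 and 0.51.

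Around the proteases, the gamma-secretase subunit Aph1b rose (0.45, adjusted p = 0.00647). The tetraspanins that escort ADAM10 split: Tspan5 rose (0.54) and Tspan15 fell (-0.57). The Groucho corepressors, which Hes proteins recruit, also split. Tle1 was at 1026, 1112, 1151 and 1036 in the controls and 677, 842, 679, 727 and 632 in the knockouts (log2 fold change -0.61, SE 0.0940, adjusted p = 0.000359). Tle2 was at 44.5, 133, 124 and 114 and 288, 203, 282, 292 and 366 (log2 fold change 1.55, SE 0.312, adjusted p = 0.00456). The groups overlapped for neither, although control 1 held less Tle2 than the other controls, and Tle4 rose slightly (0.36, adjusted p = 0.0328). Of the other cofactors Kat2a (-0.42), Hdac1 (-0.46), Ctbp2 (-0.38) and Snw1 (-0.29) fell, and Crebbp (0.35) and Kdm5a (0.31) rose. The calls of Neurl4, Nedd4, Crebbp, Tle4 and Kdm5a were each lost in 4 to 7 of the 9 fits that left out 1 library, with adjusted p up to 0.135, 0.0917, 0.128, 0.114 and 0.145. Poglut2 was lost without control 3 or 4 (adjusted p up to 0.0514), Snw1 without control 1 or 4 (up to 0.0842) and Furin without control 3 (0.0574). With controls 2 and 3 only, the calls kept were those of Dlk2, Mib2, Tspan5, Tle2, Tle4, Tspan15, Kat2a and Tle1. Among those lost there were Aph1b (adjusted p = 0.0835), Dlk1 (0.0807), Ctbp2 (0.0689), Nepro (0.0514), Hdac1 (0.0514) and Aak1 (0.0503). The oscillator gene Hes7 and its relatives Hes2 and Hes3 had too few counts to test.

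Of 5 proneural and transition genes tested, which stand downstream of Hes repression, 2 fell and 3 did not pass the threshold. Insm1 (log2 fold change -0.65, SE 0.140, adjusted p = 0.00327) and Btg2 (log2 fold change -0.74, SE 0.116, adjusted p = 0.000372), which mark progenitors on the way to differentiation, were the ones that fell. Insm1 was at 2714, 3326, 3039.6 and 2499 in the controls and at 1916, 2437, 1972, 1527 and 1468 in the knockouts. Btg2 was at 592, 704, 565 and 642 and 401, 429.8, 411, 337 and 298. For both genes every knockout lay below every control. Among those that did not pass, Neurog2 pointed upward (log2 fold change 0.48, SE 0.868, adjusted p = 0.707) and Neurod1 downward (-0.27, SE 0.976, adjusted p = 0.857). Control 1 held 264 of Neurog2, the other controls 13.1 to 31.9 and the knockouts 35.6 to 111. Neurod1 was at 102 in control 1, at 4.02 to 25.9 in the other controls and at 3.85 to 27.2 in the knockouts.

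Among cell markers, those of cycling cells fell, those of radial glia fell in part, and most of those of neurons rose. All 10 markers of cycling cells tested fell (median -0.87), with sums of 25432 to 27807 in the controls and 9730.5 to 19505 in the knockouts. Of 10 radial glia markers tested, 5 fell and 5 did not pass (median -0.39), with sums of 19746 to 25196 and 12369 to 15829. Those that fell were Nes (-1.02), Vim (-0.90), Prom1 (-0.76), Gli3 (-1.17) and Ptprz1 (-0.53), the last called in 5 of the 9 fits that left out 1 library. Those that did not pass were Sox2 (-0.24, adjusted p = 0.0579), Fabp7 (0.04, adjusted p = 0.870), Slc1a3 (0.23, adjusted p = 0.128), Pax6 (1.09, adjusted p = 0.565) and Tnc (1.90, adjusted p = 0.0541). Without control 1, 6 radial glia markers fell, Sox2 among them, and Tnc rose, and against controls 2 and 3 alone 4 fell. All 12 interneuron markers rose (median 1.52; sums 4499 to 9706 and 13571 to 18179), as did 8 of 10 pan-neuronal markers (median 0.91; sums 16595 to 21840.0 and 30129.5 to 37843). Of the interneuron markers, 11 rose without control 1, which had the lowest interneuron sum, and 10 against controls 2 and 3 alone. Dlx5 was called in 3 and Dlx6 in 4 of the 9 fits that left out 1 library, and against controls 2 and 3 alone their adjusted p was 0.113 and 0.303. Without control 1 or against controls 2 and 3 alone, 10 and 7 cycling markers fell, and 9 and 8 pan-neuronal markers rose. The part of these cell markers in the Notch values was not tested.

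**Figure D5:**
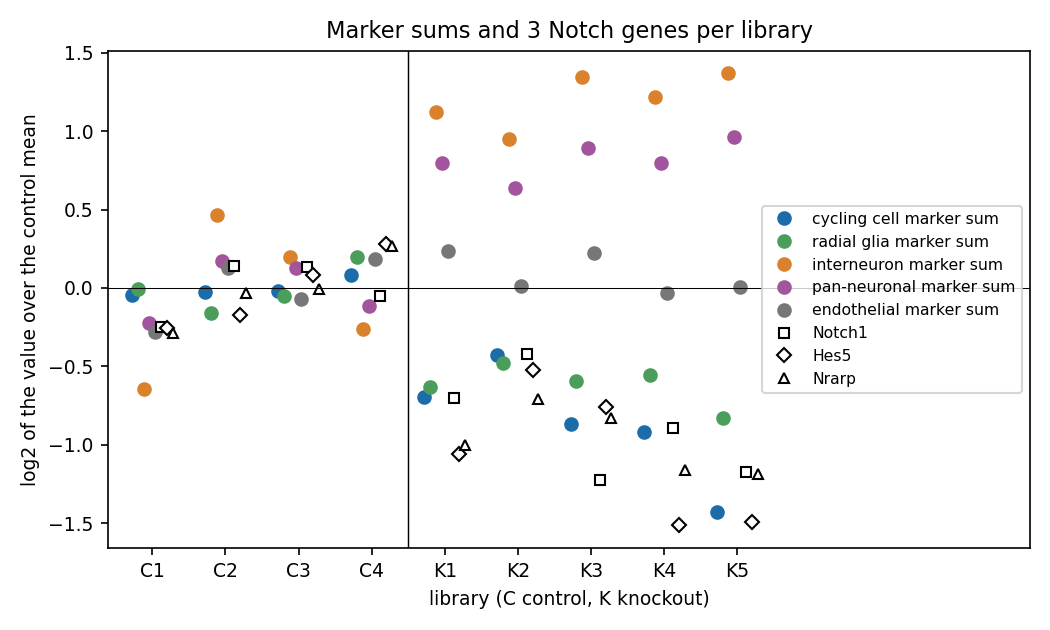
Summed normalized count of 5 marker lists (filled circles) and counts of Notch1, Hes5 and Nrarp (open symbols) in each library, as log2 of the value over the mean of the 4 controls. Cycling and radial glia sums and the 3 Notch genes lie below 0 in all 5 knockouts, interneuron and pan-neuronal sums lie above it, and endothelial sums (1338 to 1852 and 1591 to 1919) overlap.

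Markers of vessels, which this Cre does not target, did not pass. By limma, 0 of 12 endothelial markers passed the threshold and 0 had an unadjusted p under 0.05, with a median log2 fold change of 0.04. Of 9 pericyte and mural markers 0 passed and 1 had an unadjusted p under 0.05 (median 0.19; sums 1031 to 1261 and 1178 to 1508). The defining endothelial genes Cldn5 (260.1 to 391 and 293 to 459) and Cdh5 (154 to 208 and 174 to 211) were present in every library, as were the vessel-associated Notch4 and Dll4 described above. Of 7 microglia markers tested 0 passed and 3 had an unadjusted p under 0.05 by limma (median log2 fold change -0.50), and of 5 blood markers 0 and 0 (median 0.44). Of 5 oligodendrocyte precursor markers, Olig1 (0.48, adjusted p = 0.0388) and Cspg5 (0.58, adjusted p = 0.00625) rose. The groups overlapped for Olig1, which was called in 4 of the 9 fits that left out 1 library (adjusted p up to 0.121), and against controls 2 and 3 alone neither passed (adjusted p = 0.305 and 0.0916).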

How the data were processed

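RNA was profiled in 9 MGE libraries, 4 control and 5 knockout, each made from 500 ng of total RNA, per the labels' protocols. The deposited table gives each gene a signal: its read count, which the authors had divided by a size factor for each library; every value was a whole multiple of 1 step per library (100% within 0.01). The submitters' processing notes name TopHat2 2.1.1, HTSeq 0.9.1, DESeq2, R 3.4.0 and mm10. Neither the annotation nor a strand setting is given, and reads of overlapping antisense genes may be mixed in. The values were treated as normalized values and no count model was fitted. Symbols, positions and exon lengths are from GENCODE M21, and Poglut2 was matched to the listed Kdelc1 by its RefSeq synonym.

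The test was limma 3.58.1 (trend and robust, R 4.3.3) of log2 values with a pseudocount of 1, over the 13780 genes with a mean of at least 10, two-sided, with Benjamini-Hochberg adjustment over all of them. Log2 fold changes understate the changes of low genes. Errors are SD between libraries for means and SE for log2 fold changes. No 2 libraries of a group agreed within sampling noise (smallest chi-square per degree of freedom 3.38). The procedure was tested on simulated data. All 37 genes are named, with the other pathway genes past the threshold and a few markers; Nkx2-1 was chosen after its values were seen, and 1 listed gene is not reported here. The genes, lists, tests and alternatives were chosen with earlier results of these data known. The alternatives were other pseudocounts (0.5 and 8), filters (none, or a mean of 50) and scalings (TMM, upper quartile), plain limma, quality weights, a replicate block, each library left out, and controls 2 and 3 only.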

Additional observations from a re-analysis of the deposited data

Results flagged for a closer look

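In 76 groups of values (38 genes, Ctnnb1 included, in control and in knockout), 2 had a library whose distance to its nearest neighbour exceeded Dixon's 95% critical value on the log2 scale; chance alone gives about 1 in 20. The 2 found are fewer than that rate gives. Both were knockout 5. Numb was at 141 in this library and between 157 and 164 in knockouts 1 to 4, a gap of 0.725 of the group's range. Numbl was at 546, and at 414 to 448 in knockouts 1 to 4, a gap of 0.717 of the range.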

How the results depend on the processing

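Of the 19 Notch pathway genes called, 16 were called in all 9 fits that left out 1 library, and 11 under every alternative that tested them: Dll1, Jag2, Dner, Notch1, Notch2, Notch3, Lfng, Dtx1, Dtx4, Hes5 and Nrarp. With each library left out in turn, 6 to 7 of the 37 genes rose and 10 to 14 fell, and 7 to 12 of the other pathway genes rose. The share of all genes called is not given here for these fits, nor for the replicate block. Against controls 2 and 3 alone, 1370 genes of the table were higher and 1108 lower, 3 Notch genes rose, and 5 other pathway genes rose and 3 fell; fewer libraries were compared. The replicate numbers did not pair the libraries (correlation of deviations from -0.12 to 0.14 for same-numbered ones), and with the replicate block 6 of the 37 rose and 10 fell. Signs turned only for genes that never passed: Notch4 was 0.0016 with TMM scaling, 0.0044 with quality weights, 0.085 with the block and -0.0812 to 0.0847 across the fits that left out a library; Maml1 was 0.00046 with the block and -0.140 to 0.0283 across those fits, Dll4 -0.0352 to 0.283, Numb -0.112 to 0.0197 and Heyl -0.443 to 0.0281. Both pseudocounts and upper-quartile scaling changed no call. A minimum mean of 50 left out 4 genes, Dll4, Psen2, Psenen and Hey2. The causes of these differences were not tested. Psen2, Psenen, Dll4, Hey2 and Heyl had the lowest counts of the 37 genes.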
